A study of Mus musculus with 8 samples.

Results

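The forkhead (Fox) transcription factors other than those of the gut mesenchyme were compared between wildtype and Bapx1 null gut, in sorted cells from E12.5 mouse embryos. Members were all genes whose symbol in the platform annotation is Fox followed by a letter and a number, without Foxf1, Foxf2 and Foxl1. This gave 41 of the 19057 genes with a named probe, measured by 75 of 45281 probes. One of the 41, Foxd2os, is a non-coding transcript next to Foxd2 and encodes no forkhead protein, so that 40 forkhead genes were covered.

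Forkhead proteins bind DNA through a winged helix domain and are grouped into lettered subfamilies. FoxA factors open chromatin in the endoderm and its liver derivative, FoxC and FoxD factors act in paraxial mesoderm, blood vessels and kidney stroma, FoxO factors are excluded from the nucleus by insulin and Akt signalling, FoxM1 drives genes of mitosis, and FoxP factors form dimers and repress transcription. In the gut mesenchyme the best known forkheads are Foxf1, Foxf2 and Foxl1, which respond to hedgehog signals from the epithelium.

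Cells were sorted for enhanced green fluorescent protein (EGFP) made from the Bapx1 locus and hybridized to Illumina MouseWG-6 v2 BeadChips, 4 arrays of each genotype, on the mixed C57BL/6J;129 background. The wildtype embryos (Bapx1 +/tm2.Tlu) carried EGFP behind an internal ribosome entry site in the 3′ untranslated region, whereas in the null embryos (Bapx1 tm4.Tlu/tm4.Tlu) EGFP lay directly after the start codon on both alleles. The number of EGFP alleles thus differed along with the genotype. EGFP in both lines was under the elements of Bapx1 itself, and the methods describe the 4 samples of a genotype as biological replicates.

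The probe of the targeted gene did not follow the labels. Bapx1 (Nkx3-2) was not detected on any array labelled wildtype, at log2 intensities of 4.45, 4.50, 4.44 and 4.47, and was detected on each array labelled null, at 6.75, 7.56, 6.65 and 6.46 (limma adjusted p = 0.00711). The second Bapx1 probe differed by 2.23 in the same direction. The null allele retains most of the gene and where the probe lies in the transcript was not analysed here. This signal therefore did not check the genotypes. Genotype names below are those of the labels, and every direction given rests on them. Wildtype arrays detected 38.2% to 40.0% of probes and null arrays 31.0% to 38.5%, with null replicate 2 the lowest. The first principal component (57.5% of the variance) set null replicates 2 and 3 apart.

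Short promoter stretches of 3 genes are shown because they hold the core letters known for Bapx1 binding, TAAGTG or TGAGTG, and so are where a match could be looked for next to the expression values. RefSeq promoters (build GRCm38.p6, 14 promoters) were at hand for 11 of the 16 forkhead genes tested between genotypes, Foxc2, Foxk1, Foxm1, Foxp2 and Foxq1 having no entry. The letters were searched on both strands and are in capitals in each window of 30 bases. In Foxp3 the match was to the opposite strand. They began at positions -39, -87 and -105 from the start of the gene.
Foxo3, chr10:42276717-42276746, minus strand: tgaggctccctgTGAGTGgctataactttg
Foxp1, chr6:99266585-99266614, minus strand: ttgttcatttgcTGAGTGtttgtgtttatg
Foxp3, chrX:7579559-7579588, plus strand: tatcagcacacaCACTCAtcaaaaaaaaat
The letters were found in 3 of the 14 promoters and in 23.9% of all 32851 mouse promoters in the table. The promoters of Foxc1 and Foxd1 held no match. A forkhead core, GTAAACA, searched in the same way, was in 0 of the 14 and in 3.65% of all promoters. A match of this length is a description of the letters only.

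A probe was counted as detected where its detection score, which runs from 0 to 1 and compares it with negative controls of the array, was above 0.99. Genes entered the test when a probe was detected on at least 4 of the 8 arrays. Of the 41 members, 16 did so (39.0%, against 51.3% of all genes with a probe), represented by 28 probes. Another 4 were detected on fewer arrays, and 21 were detected on none.

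**Figure D1:**
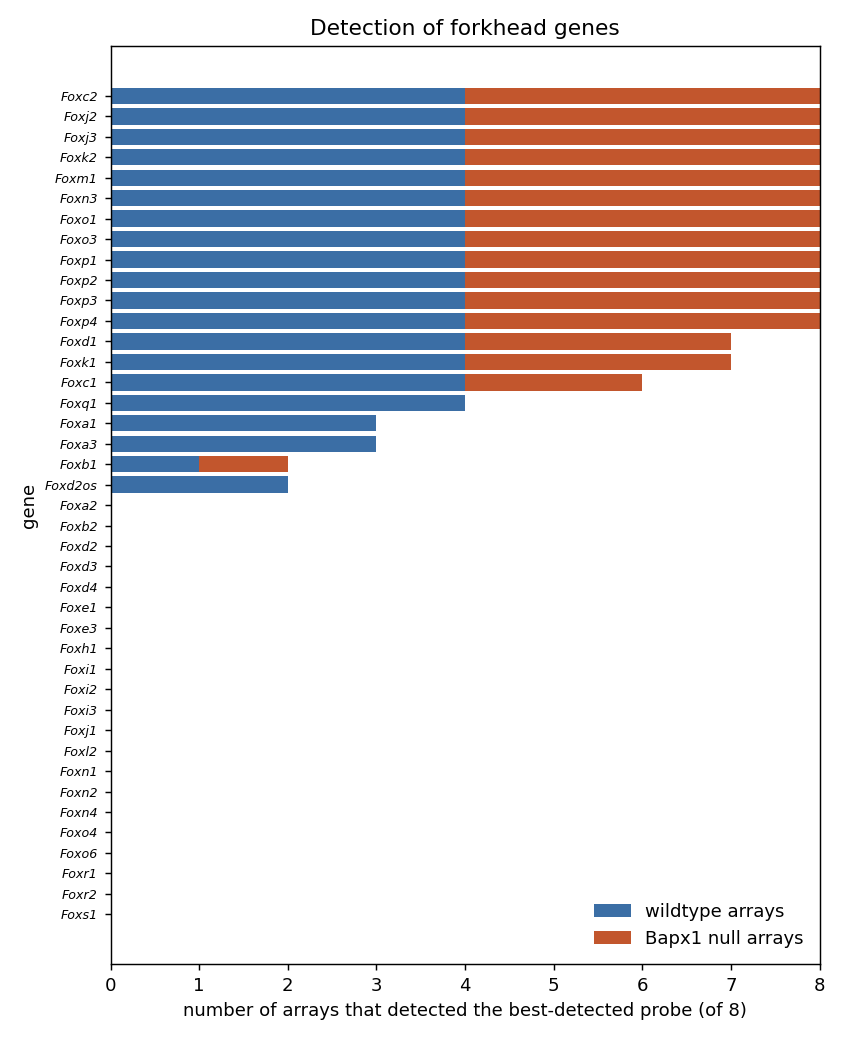
Number of arrays (of 8) on which the best-detected probe of each member was above background, stacked by genotype, with 1 bar per gene. Of the 41 members, 12 were detected on all 8 arrays, Foxd1 and Foxk1 on 7, Foxc1 on 6 and Foxq1 on the 4 wildtype arrays only, and 21 on none.

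Foxq1, Foxc1, Foxd1 and Foxc2 had fitted differences below -1 on the log2 scale in null gut cells, and only Foxq1 passed the test. Foxq1 was not detected on any null array, and its bound was at least 1.85-fold, so that a difference over 2-fold was not established for it. The fitted differences of Foxc1 and Foxd1 include null values not above background. Foxc2 was detected on all 8 arrays, and its genotypes overlapped. The other 12 genes tested differed by at most 0.46 on the log2 scale, with a median of 0.10. Over the 9784 genes tested, 2.40% had a fitted difference over 2-fold lower, and 4 of the 16 members (25.0%, Foxq1 included) had; 1.08% were over 2-fold higher, and no member was. With limma and Benjamini-Hochberg adjustment over all genes, 0.787% of genes passed an adjusted p of 0.05 (0.256% lower, 0.531% higher) and 1 of the 16 members (6.25%). At an unadjusted p under 0.05 stood 5 members (31.2%, against 27.0% of all genes), of which Foxq1, Foxc1 and Foxd1 were lower, and Foxn3 and Foxp4 higher. By direction 9.73% of all genes were lower and 17.2% higher at that level. The genotypes did not overlap in 2 of the 16 members, Foxq1 (lower) and Foxn3 (higher), against 18.6% of all genes, 6.36% lower and 12.2% higher. Of the 16 differences, 8 were negative and 8 positive, with a median of -0.04 beside 0.07 over all genes. Since a gene could enter through either genotype alone, the 16 are those that passed the filter and do not stand for all members.

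**Figure D2:**
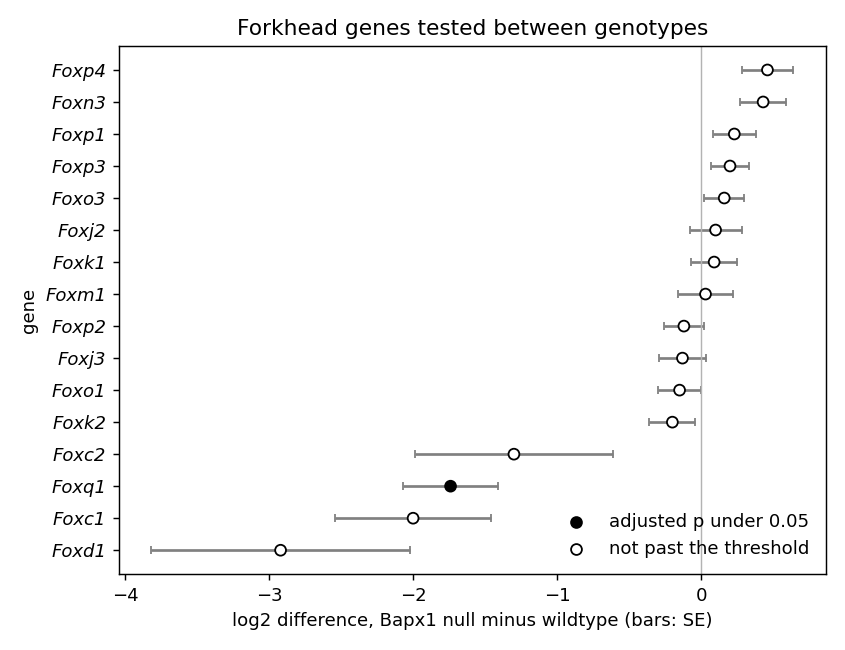
Log2 difference between Bapx1 null and wildtype (x axis, null minus wildtype, bars are the SE of the limma model) for the 16 members tested (y axis), 4 arrays a genotype. Foxd1, Foxc1, Foxq1 and Foxc2 lie between -2.92 and -1.30, and the filled point, Foxq1, is the one past an adjusted p of 0.05.

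Foxq1 encodes a forkhead repressor known in mouse for its roles in hair and in the mucous cells of the stomach. Its normalized log2 intensity was 7.71, 6.24, 6.46 and 6.10 on wildtype replicates 1 to 4 and 5.26, 5.01, 4.70 and 4.57 on null replicates 1 to 4. The lowest wildtype array stood above the highest null array, and wildtype replicate 1 was more than 1 log2 unit above the other wildtype arrays. Raw intensities were 354.6, 128.7, 127.8 and 118 in wildtype and 71.2, 56.1, 54.4 and 56.7 in null. All 4 wildtype arrays and none of the null arrays detected the probe, so that the gene was tested only through wildtype.

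The difference in Foxq1 was -1.74 ± 0.33 (SE, n = 4 arrays per genotype; limma adjusted p = 0.0495). As the null arrays gave only a bound, the signal was at least 1.85-fold lower, taken from the wildtype mean against, per null array, the higher of the probe and the dimmest detected signal. An exact permutation test over the arrays (two-sided) gave p = 0.0286, the smallest that 4 against 4 allows. The separation it measures repeats the detection on wildtype arrays alone, through which the gene entered, so this p is no further support. Over 21 alternatives the adjusted p ran from 0.0234 to 0.226, and 4 of these were past the threshold. Without wildtype replicates 1, 2, 3 or 4 it was 0.072, 0.111, 0.115 and 0.0775, and without null replicates 1, 2, 3 or 4 it was 0.0526, 0.068, 0.137 and 0.0383. Adjusted over 17440 kept probes in place of genes, it was 0.0669, and none of the 28 forkhead probes passed at the probe level, where 0.470% of all probes did.

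Foxd1, which is known from the stroma of the embryonic kidney and from the retina, had the widest difference of the family. Its values were 11.44, 9.73, 10.08 and 8.50 in wildtype and 9.20, 7.39, 7.01 and 4.48 in null. Null replicate 1 lay within the wildtype range, and null replicate 4 was at background and not detected. In raw intensity the arrays ran from 3780.9 on wildtype replicate 1 to 491.8 on wildtype replicate 4, and from 566.6 on null replicate 1 to 52.1 on null replicate 4. The fitted difference, which includes that background value, was -2.92 ± 0.90 (SE, n = 4 per genotype) and did not pass the test (limma adjusted p = 0.118; exact permutation p = 0.0571). Without null replicate 4 it was -2.07 (adjusted p = 0.0679). Wildtype arrays spanned 2.94 log2 units and null arrays 4.72.

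Foxc1, which acts with Foxc2 in somites, blood vessels and head mesenchyme, was at 9.52, 7.80, 8.60 and 6.93 in wildtype and at 7.25, 6.15, 6.17 and 5.28 in null. All wildtype arrays and 2 null arrays detected it, so that the difference includes background values. Only the lowest wildtype array and the highest null array crossed. The difference was -2.0 ± 0.54 (SE, n = 4 per genotype; limma adjusted p = 0.102; exact permutation p = 0.0571).

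Foxc2, also known for lymphatic valves, was at 10.12, 8.60, 9.14 and 7.18 in wildtype and at 8.03, 8.34, 7.82 and 5.63 in null, and all 8 arrays detected it. The genotypes overlapped, with 3 of 4 null arrays above wildtype replicate 4. The difference was -1.30 ± 0.69 (SE, n = 4 per genotype; limma adjusted p = 0.236; exact permutation p = 0.229). Without null replicate 4 it was -0.70 (adjusted p = 0.372), and without wildtype replicate 1 it was -0.85 (adjusted p = 0.467).

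**Figure D3:**
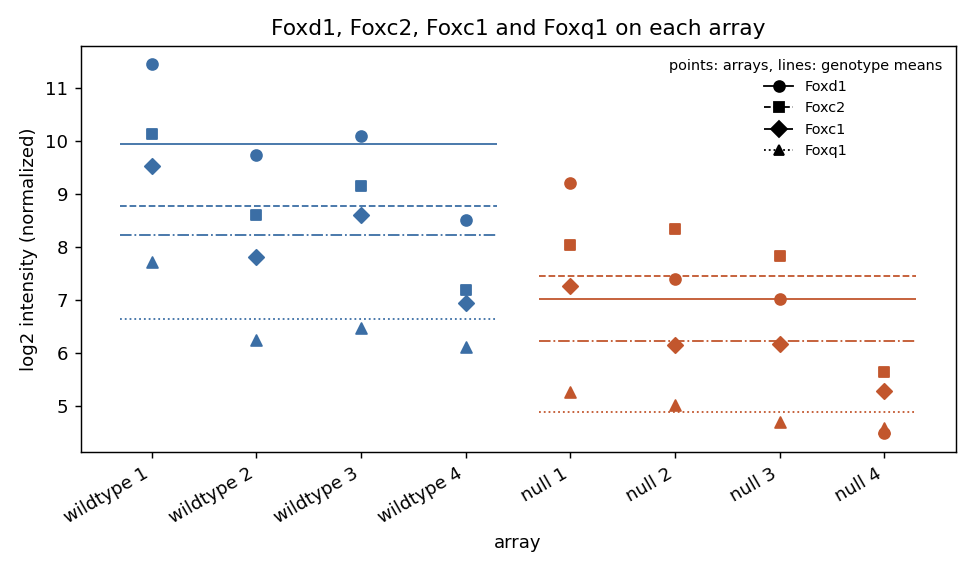
Normalized log2 intensity (y axis) of Foxd1, Foxc2, Foxc1 and Foxq1 on each of the 8 arrays (x axis), blue for wildtype and orange for Bapx1 null, with a line at the mean of each gene in each genotype. In all 4 genes wildtype replicate 1 was the highest array and wildtype replicate 4 the lowest of the wildtype arrays; the null values of Foxq1 were not above background.

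Within wildtype, where every array detected these 4 genes, replicate 1 was the highest and replicate 4 the lowest in each of them. In null, several of their values were not above background and their order was not read. Tbx1, a T-box gene of pharyngeal mesoderm that FoxC factors are known to activate, had the same highest and lowest wildtype arrays, with 9.23, 7.08, 7.60 and 5.80 (difference to null -2.39, adjusted p = 0.100). In null it was at 6.24, 4.59, 4.75 and 4.58 and was detected on 1 array. Pax1, a gene of the sclerotome, was likewise highest on wildtype replicate 1 (6.78) and lowest of the wildtype arrays on replicate 4 (4.77), and was detected on 3 wildtype arrays and 1 null array. The other paraxial mesoderm markers tested did not share this order. Within wildtype, Meox1, Meox2, Six4, Scx and Mkx were highest on replicate 1 but lowest on replicate 2. Eya1 was highest on replicate 3 and lowest on replicate 4, and Tcf15 was lowest on replicate 1 and highest on replicate 4.

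Markers of other cell types were read beside these values. Of 9 paraxial mesoderm markers tested, 1 rose (Mkx, a homeobox gene of tendon, 0.99) and 1 fell (Eya1, a transcription cofactor of the somite and kidney, detected on all 4 wildtype arrays and no null array, so that it was tested only through wildtype), the median difference was -0.71, and their summed level was 11.37 on wildtype replicate 1, against 9.69 to 10.22 on the other wildtype arrays and 9.92 to 10.22 in null. On wildtype replicate 1 that sum was led by Meox2 (10.06) and Tbx1 (9.23), against 6.47 to 7.93 and 5.80 to 7.60 on the other wildtype arrays. Scx and Mkx were at 7.75 and 6.86 there, against 7.56 to 7.64 and 6.55 to 6.72. Pax3, Pax7, Pax9, Myf5, Myod1, Lbx1 and Tbx15 were detected on no array. Of 9 markers of the urogenital ridge and kidney stroma, 1 fell (Eya1 again), and 4 differences were negative and 5 positive (median 0.14). Their summed level was 12.48 to 12.70 in wildtype and 13.02 to 13.60 in null. The brightest members of this sum were Dcn (means 10.93 in wildtype, 11.93 in null) and Gdnf (11.16 and 11.74), and neither passed. Pax2, Pax8, Lhx1, Lhx9, Emx2, Nr5a1 and Hoxd11 were detected on no array. Of 20 gut mesenchyme markers, which name the labelled tissue, none passed (limma, with 4 higher and 0 lower at an unadjusted p under 0.05), and their summed level was 15.01 to 15.17 in wildtype and 15.10 to 15.29 in null. Of 11 smooth muscle markers, 1 rose (Tagln, an actin-binding protein, detected on 1 wildtype and 3 null arrays), all 11 differences were positive, 8 at an unadjusted p under 0.05, with a median of 0.97, and the summed level was 14.55 on wildtype replicate 1, 14.92 to 15.19 on the other wildtype arrays and 15.64 to 15.90 in null. Of 8 mural cell markers 1 rose (Kcnj8, a potassium channel subunit), and all 8 differences were positive (median 0.57), with summed levels of 11.20 to 11.28 in wildtype and 11.57 to 12.15 in null.

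Markers of blood cells were mostly lower in null, as were the hepatocyte markers given further below (median -3.17). Of 6 megakaryocyte and platelet markers 5 fell (Pf4, Ppbp, Tubb1, Treml1 and Alox12), with a median of -2.89 and summed levels of 10.19 to 12.63 in wildtype and 8.06 to 9.05 in null. Pf4, a platelet chemokine, was detected on all 8 arrays. Ppbp and Gp5 (the marker that did not pass) were detected on all 4 wildtype arrays and no null array. Both were thus tested only through wildtype. Of 9 macrophage and leukocyte markers 3 fell (Mpeg1, Ctss and Lgals3, with a median over the 9 of -1.09, 10.36 to 11.20 in wildtype and 9.41 to 10.90 in null), and Ptprc and Cd52 were detected on no array. Ctss, Lgals3 and Cx3cr1 (which did not pass) were detected on all 4 wildtype arrays and no null array. They were thus tested only through wildtype, and Mpeg1 was detected on 1 null array. Of 7 erythroid markers 1 fell (Sptb, a spectrin of the red cell membrane), and all 7 were lower at an unadjusted p under 0.05 (median -1.58, 11.38 to 12.28 in wildtype and 10.11 to 10.87 in null). The median was that of Slc4a1, detected on all 4 wildtype arrays and no null array and so tested only through wildtype. Of 10 endothelial and 7 mesothelial markers none passed (limma, with 1 higher and 1 lower, and 0 higher and 3 lower, at an unadjusted p under 0.05; medians -0.31 and -0.40). The part of these cell types in the forkhead values was not tested. In sorted bulk RNA, fewer cells of a kind and less RNA per cell cannot be told apart.

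**Figure D4:**
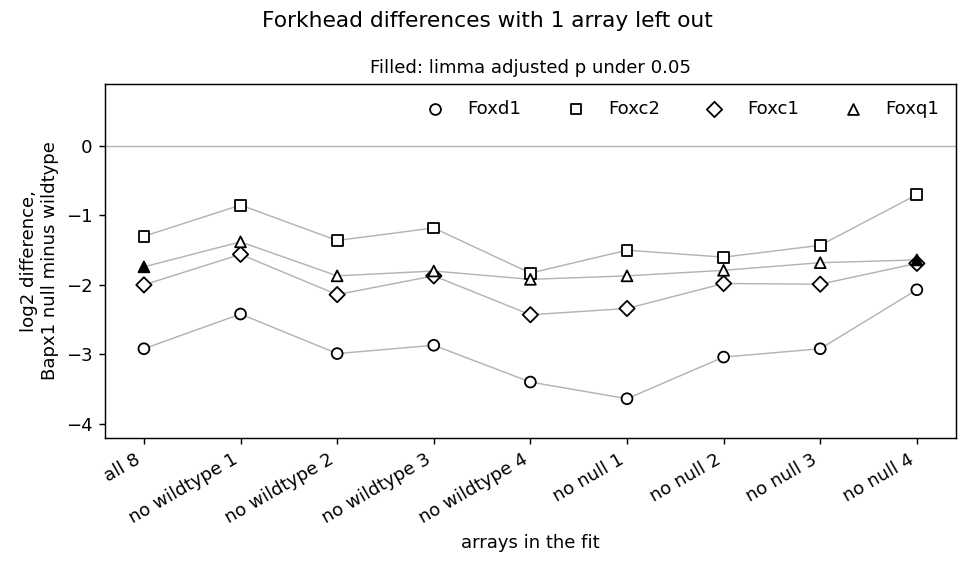
Log2 difference (y axis, Bapx1 null minus wildtype) of Foxd1, Foxc2, Foxc1 and Foxq1 with all 8 arrays and with each array left out in turn (x axis). All differences stayed negative, and the filled points, with a limma adjusted p under 0.05, are Foxq1 with all arrays and without null replicate 4.

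Foxq1, Foxf2 and Foxc1 are consecutive protein-coding genes on chromosome 13 (RefSeq order, GRCm38.p6), and on chromosome 8 Foxc2 lies between Mthfsd and Foxl1, with Foxf1 on the far side of Mthfsd. Foxf2, a gut mesenchyme factor, was at 10.88 ± 0.18 in wildtype and 10.42 ± 0.57 in null (SD, n = 4; limma adjusted p = 0.257). Foxf1 was at 8.48 ± 0.26 and 8.01 ± 0.93 (SD, n = 4; limma adjusted p = 0.422), and Foxl1 was detected on no array. Within arrays, 3 neighbouring pairs were compared. Foxq1 minus Foxf2 was -3.30, -4.38, -4.48 and -4.83 in wildtype and, with Foxq1 not above background, had no measured value in null. For Foxc1 minus Foxf2, with Foxc1 detected on 2 null arrays, the difference was -1.54 (exact permutation p = 0.0857, 0.129 adjusted over the 3 pairs). For Foxc2 minus Foxf1 it was -0.83 (exact permutation p = 0.543, adjusted 0.543). The adjustment over 3 pairs included the p of the Foxq1 pair, which used background values in null, so that 0.129 is not read.

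FoxA genes were close to background. Foxa1 was detected on 3 wildtype arrays and no null array, with 6.00, 5.92, 4.93 and 6.71 in wildtype and 4.78, 4.57, 4.66 and 4.85 in null. Foxa3 was likewise detected on 3 wildtype arrays only, with 6.49, 5.76, 5.09 and 6.53 against 4.96, 4.62, 5.12 and 4.74. In both genes wildtype replicate 3 was the array without detection. Both missed the filter, and the bounds put Foxa1 at least 1.11-fold lower in null, and Foxa3 at least 1.17-fold. Tested without a filter, neither passed (Foxa1 -1.18, limma adjusted p = 0.162; Foxa3 -1.11, adjusted p = 0.166). Foxa2, the third member of the subfamily, was detected on no array.

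Liver genes that FoxA factors are known to activate were read on the same arrays. Afp, which encodes alpha-fetoprotein, was at 12.41, 10.89, 6.84 and 12.07 in wildtype and at 4.53, 6.46, 7.19 and 4.68 in null (difference -4.84, limma adjusted p = 0.0787), with 2 null arrays above background. Ttr, a transport protein of thyroid hormone, differed by -4.00 (adjusted p = 0.076) and was detected on 1 null array. Wildtype replicate 3 was again the lowest wildtype array for both. Of 4 FoxA endoderm targets tested, 0 passed in limma, all 4 were lower at an unadjusted p under 0.05, and Alb and Pdx1 were detected on no array. Of 8 hepatocyte markers, which partly overlap with this list, 1 fell (Tdo2, an enzyme of tryptophan breakdown, detected on no null array and with wildtype replicate 3 not its lowest wildtype array), and their summed level was 9.16 on wildtype replicate 3, 11.96 to 13.72 on the other wildtype arrays and 8.15 to 9.15 in null. Of 6 gut epithelium markers none passed (limma, with 5 lower at an unadjusted p under 0.05), and Epcam, Grhl2 and Ihh were detected on no array. Krt8, Krt18, Cdh1, Cldn6 and Spint1 differed by -0.84, -0.50, -1.03, -0.80 and -0.96, and Gata6, a factor that mesenchyme also expresses, by 0.41. Their summed level, which includes Gata6, was 10.58 to 11.14 in wildtype and 10.29 to 11.05 in null. The platelet genes were likewise lowest on wildtype replicate 3 within wildtype, with Pf4 at 11.98, 10.83, 9.47 and 11.94 and Ppbp at 8.89, 8.11, 6.49 and 9.13. Whether these cell types account for Foxa1 and Foxa3 was not tested.

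Among the FoxP genes, Foxp4 was at 10.32, 9.97, 10.22 and 10.17 in wildtype and at 10.56, 10.98, 10.80 and 10.18 in null. Null replicate 4 lay within the wildtype range and the other null arrays above it. The difference was 0.46 ± 0.18 (SE, n = 4 per genotype, limma adjusted p = 0.153, exact permutation p = 0.0857). Without null replicate 4 it was 0.61 (limma adjusted p = 0.0433), the 1 alternative of 22 past the threshold. Without null replicates 2 and 3 it was 0.20 (adjusted p = 0.507), and with the mean of all kept probes 0.10 (adjusted p = 0.623). Its other kept probes differed by -0.32 and 0.15, and none of the 3 passed at the probe level.

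Foxp1 and Foxp2 gave different answers by probe. The brightest Foxp2 probe ranged from 8.04 to 8.54 over all 8 arrays and differed by -0.12 ± 0.14 (SE, n = 4; limma adjusted p = 0.586). The other Foxp2 probes differed by -1.18 and -1.63, and both were low on null replicates 2 and 3 alone, at 5.94 and 5.61 for the one and at 4.57 and 4.73 for the other, while the remaining arrays were at or above 7.45. The brightest Foxp1 probe differed by 0.23 ± 0.15 (adjusted p = 0.309) and the second by -0.79, being 5.40 and 6.03 on null replicates 2 and 3 and at or above 7.0 elsewhere. Null replicates 2 and 3 are the arrays that the first principal component set apart, and their part in these probes was not tested.

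Foxp3, which defines regulatory T cells, was read on all 8 arrays by a single probe (9.39 to 9.63 in wildtype, 9.59 to 9.92 in null, difference 0.20 ± 0.13, limma adjusted p = 0.321). The other 3 Foxp3 probes were detected on no array, with values from 4.34 to 5.10. What the bright probe measured could not be told from these data.

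**Figure D5:**
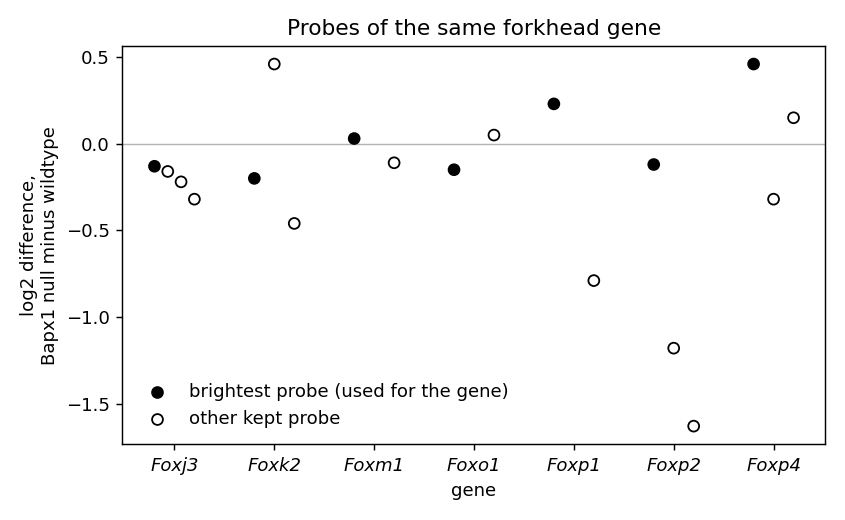
Log2 difference (y axis, Bapx1 null minus wildtype) of each kept probe of the 7 members with more than 1 kept probe (x axis), with the brightest probe, which represents the gene, filled. Probes of Foxp2 ranged from -1.63 to -0.12 and those of Foxj3 from -0.32 to -0.13.

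Foxn3, a repressor linked to cell cycle checkpoints, was at 9.89, 9.65, 9.78 and 9.71 in wildtype and at 10.45, 10.37, 10.02 and 9.92 in null. Every null array was above every wildtype array, by a small margin (0.43 ± 0.16, SE, n = 4 per genotype; limma adjusted p = 0.136; exact permutation p = 0.0286). Of all genes tested, 12.2% were higher in null without overlap. Without normalization between arrays the difference was -0.06.

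Of the FoxO genes, Foxo1 and Foxo3 were detected on all 8 arrays. Foxo1 was at 7.73, 7.74, 7.89 and 7.63 in wildtype and 7.45, 7.93, 7.47 and 7.53 in null (difference -0.15 ± 0.15, SE, n = 4; limma adjusted p = 0.50), and Foxo3 ranged from 5.87 to 6.34 (0.16 ± 0.14, adjusted p = 0.449). Foxo4 and Foxo6 were detected on no array. Of 19 targets of FoxO factors tested, 1 fell and none rose (limma, with 4 higher and 6 lower at an unadjusted p under 0.05). Of the 19 differences, 13 were negative. Among the lower genes, Cdkn1a was detected on all 4 wildtype arrays and no null array, and so was tested only through wildtype. The gene that fell was Ccng2, an atypical cyclin that slows the cell cycle, at 10.63, 10.42, 10.24 and 10.11 in wildtype and 9.09, 7.63, 8.16 and 9.01 in null (difference -1.88, limma adjusted p = 0.0317). Bcl6, a repressor that FoxO factors induce in lymphoid cells, was at 6.14 to 6.63 in wildtype and 7.12 to 8.37 in null (1.20, adjusted p = 0.0641). The adjusted p of Ccng2 ran from 0.0142 to 0.162 over 22 alternatives, with 11 past the threshold. Of 14 genes of the insulin and kinase pathway upstream of FoxO none passed (limma, with 3 higher and 2 lower at an unadjusted p under 0.05). Irs2, an adaptor of the insulin receptor, differed by 0.67 (adjusted p = 0.126) and Pik3r1, the regulatory subunit of phosphoinositide 3-kinase, by 0.50 (adjusted p = 0.138). Without null replicates 2 and 3 Irs2 differed by 0.29 (limma adjusted p = 0.358) and Pik3r1 by 0.32 (adjusted p = 0.393).

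Foxm1, the forkhead factor of dividing cells, was at 8.19 ± 0.14 in wildtype and 8.22 ± 0.37 in null (SD, n = 4; limma adjusted p = 0.923), and its second probe differed by -0.11. Of 14 mitotic targets of FoxM1 tested none passed (limma, with 1 higher and 5 lower at an unadjusted p under 0.05), although 13 of the 14 differences were negative. Cep55, which acts in the final separation of daughter cells, differed by -1.23 (adjusted p = 0.104), with 7.32 and 8.24 on null replicates 2 and 3, 8.85 and 9.20 on null replicates 1 and 4, and 9.52 to 9.75 in wildtype. Top2a, a topoisomerase of dividing cells, differed by -1.28 (adjusted p = 0.113), with 9.40 and 9.24 on null replicates 2 and 3 and 10.80 or more on all other arrays.

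The brightest kept probes of Foxj2, Foxj3, Foxk1 and Foxk2 differed by no more than 0.20 between genotypes. Foxj3 was at 11.15 ± 0.08 and 11.02 ± 0.30 (SD, n = 4), and its 4 kept probes differed by -0.13 to -0.32. Foxj2 was at 7.89 ± 0.16 and 7.99 ± 0.33, Foxk1 at 5.74 ± 0.16 and 5.83 ± 0.25, and Foxk2 at 9.03 ± 0.08 and 8.83 ± 0.29. The 3 probes of Foxk2 differed by -0.20, 0.46 and -0.46. Of 10 known partners of FoxK proteins none passed (limma, with 0 higher and 2 lower at an unadjusted p under 0.05), among them Ogt, the enzyme that adds N-acetylglucosamine to nuclear proteins (-0.68, adjusted p = 0.100), and Hdac2, a histone deacetylase (-0.37, adjusted p = 0.155). Of 8 FoxP partners none passed (1 higher and 2 lower at that level). Gatad2b and Rbbp7, subunits of the NuRD deacetylase complex, differed by 0.72 (adjusted p = 0.123) and -1.54 (adjusted p = 0.149), the latter with 7.28 and 6.87 on null replicates 2 and 3 and 9.59 or more elsewhere. Gatad2b was at 8.82 and 9.11 on those 2 arrays and at 8.33 or less elsewhere.

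Of 9 targets of FoxC factors on the array 5 were tested, and none passed (limma, with 0 higher and 1 lower, Tbx1, at an unadjusted p under 0.05), and Dll4, Itgb3, Msx2 and Prox1 were detected on no array. Angpt2, a ligand of the Tie2 receptor in vessels that FoxC2 regulates, was at 9.62, 9.19, 8.88 and 7.95 in wildtype and 9.15, 8.32, 8.02 and 6.77 in null (-0.85, adjusted p = 0.265). All 8 arrays detected Angpt2, and the replicate 4 array was its lowest in each genotype.

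No signal was found for the forkhead genes of the ciliated, thymic, ovarian and early embryonic programmes. Foxb2, Foxd2, Foxd3, Foxd4, Foxe1, Foxe3, Foxh1, Foxi1, Foxi2, Foxi3, Foxj1, Foxl2, Foxn1, Foxn2, Foxn4, Foxr1, Foxr2 and Foxs1 were detected on no array, along with Foxa2, Foxo4 and Foxo6 above. Foxb1 was detected on 1 array of each genotype and Foxd2os on 2 wildtype arrays. Foxd2os, at 5.79, 5.11, 5.49 and 4.80 in wildtype and 5.19, 4.45, 5.16 and 4.68 in null, was near background on all arrays. An undetected probe limits the signal on these arrays and does not show that the gene was silent. Foxj1 is the master gene of motile cilia, and of 5 cilium genes tested none passed (limma, with 1 higher and 1 lower at an unadjusted p under 0.05). Rfx3, a cilium transcription factor, differed by -1.12 (adjusted p = 0.126), with 4.84 and 6.00 on null replicates 2 and 3 and 6.60 or more elsewhere. Rsph9, a radial spoke protein, differed by 0.73 (adjusted p = 0.139), with 8.83 and 8.66 on those arrays and 7.86 or less elsewhere. For Foxh1, which carries nodal signals with Smad2, none of 4 genes tested passed (limma, 0 at an unadjusted p under 0.05). Acvr2a, an activin receptor, differed by -0.72 (adjusted p = 0.217), with 6.07 on null replicate 2 and 7.32 or more elsewhere. Smad2 differed by 0.10 (adjusted p = 0.724), and Nodal, Lefty2, Cfc1 and Tdgf1 were detected on no array.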

How the data were processed

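Gene expression was measured on 8 arrays, 4 of each genotype. The authors deposited linear probe intensity exported with GenomeStudio (version not given in the sources used here), with no background subtraction seen in the values (lowest 29.8). A fraction deposited under a detection p header rose with intensity and was used as 1 minus the detection p. A processed table the authors deposited on a log2 scale equalled log2 intensity centred per array and per probe. What the probe baseline was taken over is unknown, and column medians lay between -0.0112 and 0.0145. The 45281 records of both tables were joined on differences between arrays, which matched within 1.84e-06. Symbols came from the platform annotation (34885 probes with a single gene, 18 with several, 10378 unnamed here).

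Intensities were background corrected with limma 3.58.1 in R 4.3.3 (nec, offset 16, negative controls inferred from the detection p), log2 transformed and quantile normalized. Probes detected (p under 0.01) on at least 4 of 8 arrays were kept, and a gene was its brightest kept probe. Genotypes were compared with lmFit and eBayes, with Benjamini-Hochberg adjustment over 9784 genes, and the procedure was tested on simulated data. Differences are null minus wildtype. Summed levels are log2 of the summed linear signal of a list. The number of arrays limits the precision. Every tested member was named, with full values for those at an unadjusted p under 0.05 and for Foxd1, Foxc2 and Foxq1. From each list of related genes those past the threshold and up to 2 of lowest p were named. Pax1, markers past the threshold, genes detected in wildtype alone, the epithelial markers and undetected genes were named in addition, after their values were seen. The members and lists were chosen with earlier results of these data known. Alternatives covered background correction, normalization, filter, probe choice, covariate, block, the test of the methods, weights and single arrays.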

Additional observations from a re-analysis of the deposited data

Results flagged for a closer look

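In each genotype of each of the 16 members tested, the array farthest from the others was compared with the group's range (Dixon's criterion for 4 values, 32 groups). This marks about 1 in 20 groups by chance, and 2 were found. Foxo1 on null replicate 2 was at 7.93, with the other null arrays at 7.45 to 7.53 (gap over range 0.831, just past the limit). Foxp3 on null replicate 3 was at 9.92, with the others at 9.59 to 9.64 (0.846). Null replicates 2 and 3 also lay apart on the first principal component.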

How the results depend on the processing

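The count of forkhead members past the threshold (1, Foxq1) was 0 without background correction, with an offset of 50, with cyclic loess, with scaling by median and MAD, with the processed table, without a filter, with detection on all 8 arrays (12 members left, Foxq1 not among them), with each array's share of detected probes as a covariate, with the plain ANOVA of the methods, with array weights, and without null replicates 2 and 3; the cause was not tested. Leaving out single arrays gave 0 to 2. The replicate numbers did not pair the arrays (correlations of same-numbered deviations 0.15, -0.18, -0.06 and -0.14; not every array matched its own number best), and with the replicate block 3 members passed (Foxc1 and Foxd1 at 0.0166, Foxq1 at 0.0234) and 51 genes in all. Over all genes 77 passed, against 45 without normalization (1 higher, 44 lower, against 52 and 25), 8 with the processed table (1 higher, 7 lower), 0 with MAD scaling (limma, 5067 at an unadjusted p under 0.05), 49 without a filter, 2 with the covariate, 2 with ANOVA and 202 with weights. Single arrays left out gave 4 to 1245, with 4, 7, 32 and 4 without wildtype replicates 1 to 4, 6 without null replicate 3 and 1245 without null replicate 4. Forkhead probes past the threshold numbered 0, and 0 to 3 with single arrays left out (3 without null replicate 4).

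The median of the members moved from -0.04 to -0.56 without normalization, 0.66 with MAD scaling and -0.40 with the processed table, as the median of all genes moved from 0.07 to -0.45, 1.02 and -0.25. Foxq1, Foxc1, Foxd1, Foxc2 and Foxp4 kept their direction under every alternative that gave a value. Small differences turned. Without normalization these were Foxj2 (-0.51), Foxk1 (-0.39), Foxm1 (-0.57), Foxn3 (-0.06), Foxo3 (-0.44), Foxp1 (-0.36), Foxp3 (-0.32) and Smad2 (-0.47). With the processed table they were Foxj2 (-0.31), Foxk1 (-0.11), Foxm1 (-0.38), Foxo3 (-0.16), Foxp1 (-0.20), Foxp3 (-0.18) and Smad2 (-0.30). With MAD scaling they were Foxj3 (1.85), Foxk2 (0.86), Foxo1 (0.39), Foxp2 (0.59), Top2a (0.31), Angpt2 (0.10), Ogt (1.15) and Hdac2 (2.41). With the covariate they were Foxj3 (0.14), Foxm1 (-0.33), Foxp2 (0.08), Acvr2a (0.20) and Smad2 (-0.31), with the mean of probes Foxm1 (-0.04), Foxp1 (-0.28) and Hdac2 (0.19), with weights Foxj2 (-0.05), and with cyclic loess Foxm1 (-0.04). Without null replicates 2 and 3 they were Foxj2 (-0.09), Foxm1 (-0.05), Foxo3 (0.00) and Smad2 (-0.11). With single arrays left out Foxj2 turned (-0.04 to 0.23), and so did Foxj3 (-0.24 to 0.00), Foxm1 (-0.13 to 0.13) and Smad2 (-0.06 to 0.25). A slide block was not run, as no slide is given. Detection at a p under 0.05 gave 41 forkhead probes in place of 32.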
